A study of Mus musculus with 6 samples.

Results

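Fhit, Ptprg, Cadps, Synpr, Thoc7, Atxn7, Psmd6, Rpl15 and Nkiras1 are 9 named genes of mouse chromosome 14 that lie within about 10 Mb of Fezf2, the gene disrupted in these mice. They were taken by symbol from the deposited table of 23016 entries, where each matched 1 entry. All 9 are among the 17557 entries that passed a filter on low values and were tested. RNA was sequenced from dissected cerebral cortex at postnatal day 0, in 3 Fezf2 KO (Fezf2-/-) and 3 wild type (Fezf2+/+) pups born to heterozygous parents, with 1 library from each brain. Replicates 1 and 2 of each genotype came from litter m1 and replicate 3 of each came from litter m2. The sources used here give neither the strain of the mice nor the part of Fezf2 that the allele lacks. The genotype is inherited through the germline, so loss of Fezf2 is not limited to 1 cell type.

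Fezf2 encodes a zinc finger transcription factor that deep-layer cortical neurons need to become subcerebral projection neurons. The flanking genes share a place on the chromosome and no common function. They include a receptor phosphatase, proteins of synaptic and dense core vesicles, an mRNA export factor, subunits of a chromatin complex and of the proteasome, a nucleotide hydrolase, a ribosomal protein and a regulator of NF-kappaB signalling. Genes close to a targeted locus tend to be inherited together with it, so KO pups can carry the neighbours' copies that came with the targeted chromosome. An effect of losing Fezf2 and an effect of the targeted allele or of the linked DNA cannot be told apart in this design. The comparison therefore gives the level of each neighbour with and without an intact Fezf2 gene.

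Values are normalised read counts, that is the reads of a gene scaled by the size factor of its library, so they compare libraries for 1 gene and not the levels of different genes. The whole reads recovered from them summed to between 47169514 and 52872577 in the Fezf2 KO libraries and between 44978380 and 49139392 in the wild type libraries. Differences are log2(value + 1) in Fezf2 KO minus wild type, given with the standard error (SE) or the 95% interval of limma, a linear model with moderated variances. The threshold for a change was an adjusted p of 0.05 (Benjamini-Hochberg) over all 17557 genes. In bulk tissue, fewer cells of a type and less RNA per cell cannot be told apart. Markers of cortical excitatory neurons were present in every library, the lowest being Emx1 with 3741. Fezf2 KO 1 stood apart in choroid plexus markers, whose 6 genes summed to 9786 there. In the other Fezf2 KO and the wild type libraries that sum lay between 72.2 and 144. Striatal markers were also uneven, with sums between 3506 and 8347 in Fezf2 KO and between 7678 and 10878 in wild type. Other marker lists had sums that did not overlap between genotypes. For GABAergic interneurons they were 55108 to 59375 in Fezf2 KO and 47550 to 52832 in wild type. Of those 13 entries, 10 were higher and 3 lower in Fezf2 KO on average. Limma called Npy and Sp8 higher, and 5 of the 13 had an unadjusted limma p under 0.05. Thalamic markers summed to 1112 to 1235 in Fezf2 KO and 829 to 907 in wild type. Of those 5 genes, 3 were higher and 2 lower on average (median log2 difference 0.07), and limma called Slc17a6 higher. The mean over the thalamic genes of log2 values, each centred on its gene, did overlap between genotypes. It was -0.40 to 0.60 in Fezf2 KO and -0.45 to 0.21 in wild type. Over all genes limma called 0.712%, and 9.03% had an unadjusted p under 0.05. Astrocyte markers summed to 12345 to 14346 in Fezf2 KO and 15317 to 15539 in wild type (5 genes, all 5 lower in Fezf2 KO on average, 0 called by limma and 1 with an unadjusted p under 0.05). Fezf2 KO 1 was also the lowest library for astrocyte and the highest for erythroid markers, with 13896 for the erythroid list.

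Fezf2 itself had 1989, 1377 and 1533 in Fezf2 KO 1, 2 and 3, compared with 5030, 5928 and 5396 in wild type 1, 2 and 3. Every KO library lay below every wild type library, and reads of the gene remained in each of them. The fall was -1.75 on the log2 scale (SE 0.129, limma adjusted p = 0.000832).

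None of the 9 flanking genes passed the test in limma: 0 rose and 0 fell. Over all genes 0.712% passed. At an unadjusted limma p under 0.05 there were 2 flanking genes, Thoc7 (higher) and Rpl15 (lower), where 9.03% of all genes reached that level (4.66% higher and 4.37% lower). EdgeR, a count model run on the recovered reads, also called 0 (0.689% of all genes), while DESeq2 called both Thoc7 and Rpl15, at a rate of 2.3% over all genes. The median log2 difference of the 9 was -0.029, against 0.002 over all genes tested, and the values ran from -0.28 to 0.28. For 8 of the 9 the 95% interval lay wholly within a 1.5-fold change either way, as it did for 74.4% of all genes. Ptprg was the exception, with an upper bound of 0.59.

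**Figure D1:**
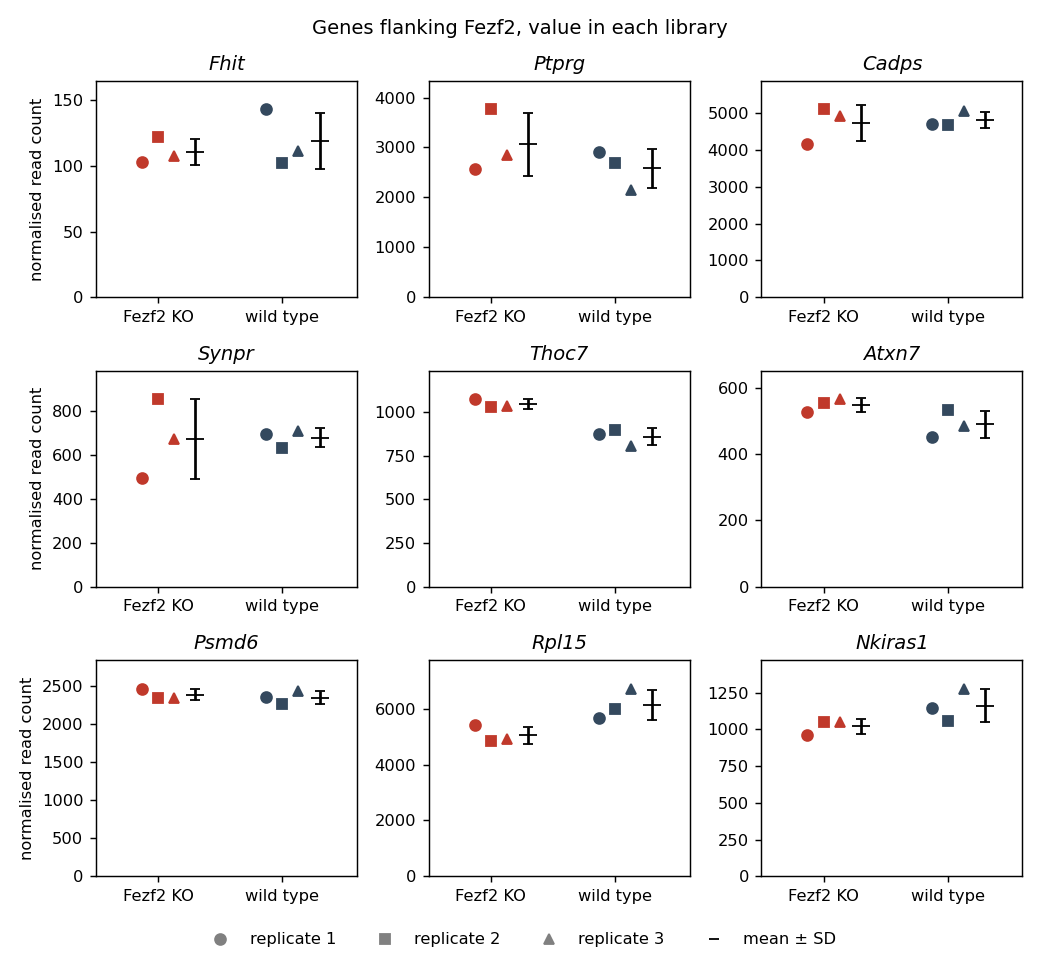
Normalised read count (y axes, from 0) of the 9 flanking genes in the 3 Fezf2 KO libraries (left, red) and the 3 wild type libraries (right, blue-grey); symbols mark replicates and the bars beside them the mean ± SD. The genotypes do not overlap for Thoc7, Rpl15 and Nkiras1, while Synpr and Ptprg spread most among the KO libraries.

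Genotypes did not overlap for 3 of the 9 genes, 1 higher and 2 lower in Fezf2 KO, against 14.5% of all genes in either direction (7.6% higher and 6.85% lower).

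**Figure D2:**
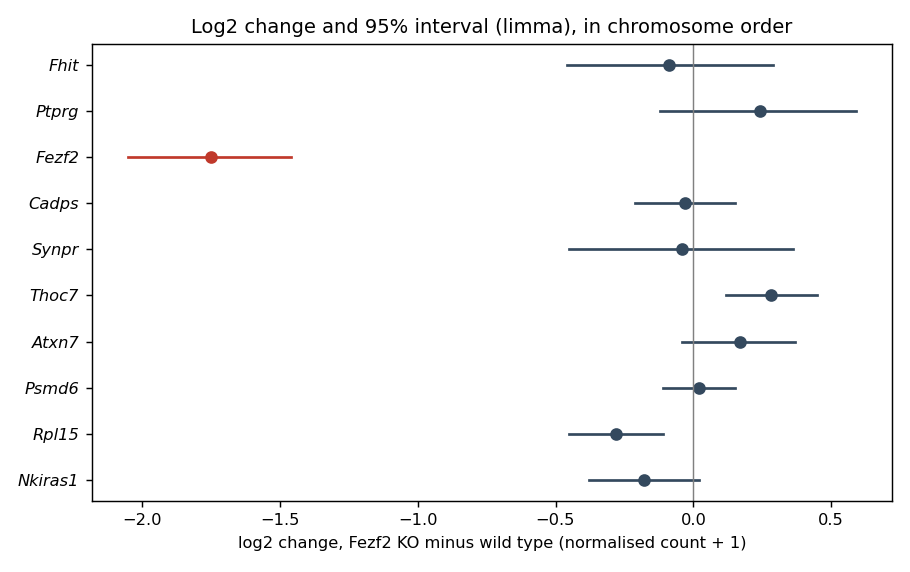
Log2 change of Fezf2 KO minus wild type (x axis) with the limma 95% interval for the 9 flanking genes and Fezf2, listed down the page in their order along chromosome 14. The interval of Fezf2 runs from -2.05 to -1.46, and among the flanking genes those of Thoc7 and Rpl15 leave out 0.

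On the centromere side of Fezf2 lie Ptprg and, beyond it, Fhit. Ptprg encodes a receptor-type protein tyrosine phosphatase of neurons and glia whose carbonic anhydrase-like domain binds contactins. It had 2570, 3767 and 2849 in Fezf2 KO 1, 2 and 3, compared with 2915, 2689 and 2155 in wild type 1, 2 and 3. The genotypes overlapped, with the highest value in Fezf2 KO 2 and the lowest in wild type 3. The log2 difference was 0.24 (95% interval -0.12 to 0.59, limma adjusted p = 0.758), and it was 0.08 without Fezf2 KO 2 and 0.11 without wild type 3. Fhit encodes a histidine triad hydrolase of diadenosine polyphosphates and spans a fragile site in human cells. It was the flanking gene with the fewest reads, between 117 and 153 per library. Its values were 103.1, 122.1 and 107.7 in Fezf2 KO 1, 2 and 3, compared with 143.2, 102.1 and 111.7 in wild type 1, 2 and 3. Wild type 1 was the high library and the others lay close together across genotypes. The log2 difference of Fhit was -0.09 (95% interval -0.46 to 0.29, limma adjusted p = 0.943), and 0.05 without wild type 1.

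Cadps and Synpr, on the other side of Fezf2, encode vesicle proteins. Cadps is the next named gene after Fezf2 and makes CAPS1, which primes dense core vesicles for release. Its values were 4171, 5104 and 4921 in Fezf2 KO 1, 2 and 3, compared with 4709, 4669 and 5056 in wild type 1, 2 and 3. Fezf2 KO 1 was the low library and the others were mixed between genotypes. With a log2 difference of -0.03 and a 95% interval of -0.21 to 0.15, the data bound any change of this immediate neighbour (limma adjusted p = 0.968), and the sign turned to 0.06 without Fezf2 KO 1 and to 0.01 without wild type 3. Synpr encodes synaptoporin, a relative of synaptophysin in the membrane of synaptic vesicles. It had 492.9, 854.9 and 671.1 in Fezf2 KO 1, 2 and 3, compared with 696.2, 629.1 and 709.0 in wild type 1, 2 and 3. The KO libraries held both the lowest and the highest value, with an SD of 181 in Fezf2 KO and 42.9 in wild type (n = 3 each). The log2 difference of Synpr was -0.04 (95% interval -0.45 to 0.36, limma adjusted p = 0.983), and 0.16 without Fezf2 KO 1.

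Fhit, Ptprg, Cadps and Synpr were each lowest in Fezf2 KO 1 and highest in Fezf2 KO 2 among the KO libraries. By the mean over genes of log2 values centred on each gene, 7 of 11 marker lists had that order, those of cortical excitatory, striatal, GABAergic, hippocampal, thalamic, oligodendrocyte and microglial genes. By this measure the order was thus not particular to 1 list. Cortical excitatory genes differed little, with -0.03, 0.00 and -0.02 in Fezf2 KO 1, 2 and 3. Their sums ran the other way, from 107187 in Fezf2 KO 1 to 99196 in Fezf2 KO 2. Oligodendrocyte sums were highest in Fezf2 KO 3, while the sums of the rest of these lists, and of astrocyte markers, had the order. The share of all genes with that order was not counted. The striatal list had the widest range over the KO libraries among these 7, with mean centred log2 values of -1.40, 0.34 and -0.63 in Fezf2 KO 1, 2 and 3, compared with 0.84, 0.54 and 0.31 in wild type 1, 2 and 3. Of its 11 genes, 0 were changed by limma (9 reached an unadjusted p under 0.05, and edgeR called 0 and DESeq2 1), 0 were at 0 in all libraries and 10 had a lower mean log2 in Fezf2 KO. Over all genes 9.03% reached that unadjusted p, and limma called 0.712%, edgeR 0.689% and DESeq2 2.3%. The choroid plexus list, of 6 genes, had 3.24, -0.47 and -0.34 in Fezf2 KO 1, 2 and 3, compared with -0.75, -0.59 and -1.11 in wild type 1, 2 and 3. The part of these tissues and cell types in the values of the flanking genes was not tested.

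**Figure D3:**
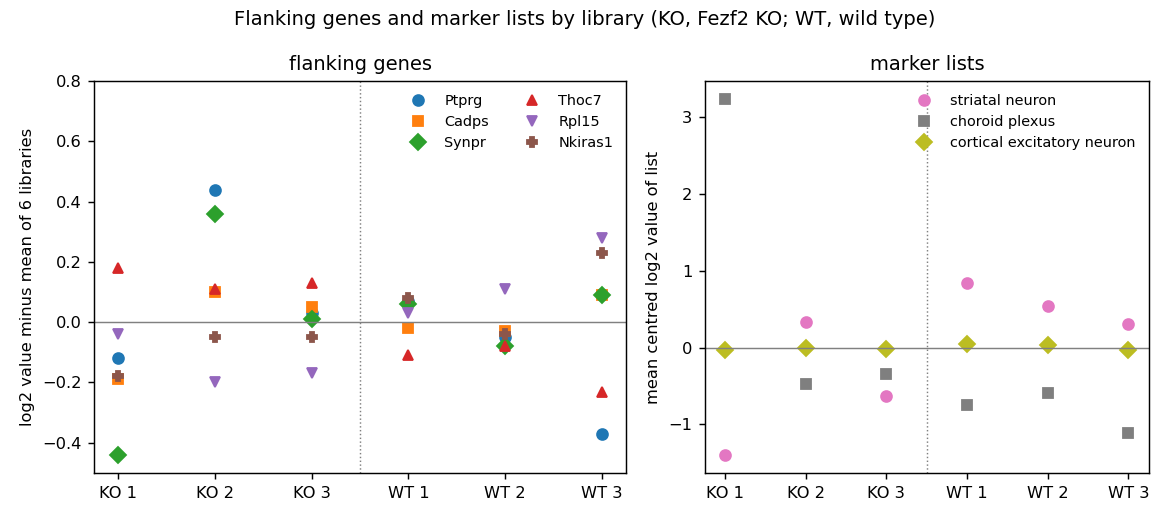
Left, log2 value minus the gene's mean over the 6 libraries (y axis) for 6 flanking genes in Fezf2 KO (KO) and wild type (WT) libraries; right, the mean of such values for 3 marker lists. Synpr runs from -0.44 in Fezf2 KO 1 to 0.36 in Fezf2 KO 2, and the choroid plexus list stands at 3.24 in Fezf2 KO 1.

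Thoc7, Atxn7 and Psmd6 follow Synpr and lie side by side. Thoc7 encodes a subunit of the THO complex, which couples transcription to mRNA export. It had 1074, 1025 and 1035 in Fezf2 KO 1, 2 and 3, compared with 874.9, 895.3 and 804.4 in wild type 1, 2 and 3. Every KO library lay above every wild type library. The mean was 1045 ± 26.1 in Fezf2 KO and 858 ± 47.7 in wild type (SD, n = 3 each), a ratio of 1.22 (95% interval 1.09 to 1.36 by limma). Thoc7 had the smallest limma p of the 9 genes, 0.00374 unadjusted, and did not pass over all genes (log2 0.28, SE 0.071, adjusted p = 0.176). Within litter m1 the log2 difference was 0.25, and between the single libraries of litter m2 it was 0.36. DESeq2 gave an adjusted p of 0.0427, and over all alternatives run the adjusted p of Thoc7 ranged from 0.0427 to 0.618.

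The table also holds an assembled transcript named linc-Thoc7-AS. It had 422.2, 369.1 and 368.2 in Fezf2 KO 1, 2 and 3, compared with 267.6, 302.8 and 252.7 in wild type 1, 2 and 3. The KO libraries were all above the wild type libraries here too, with a log2 difference of 0.49 (SE 0.110, limma adjusted p = 0.119). Its name places it antisense to Thoc7, and because no source gives the strand of these libraries, reads of the sense and antisense transcripts cannot be told apart. Other assembled transcripts carry names of flanking genes. For linc-Synpr the genotypes overlapped (log2 0.87, limma adjusted p = 0.646), and linc-Fhit-AS, with values from 0.00 to 1.87, was not tested.

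Atxn7 encodes ataxin 7, a subunit of the deubiquitinating module of the SAGA chromatin complex, and its human gene carries the repeat expanded in a spinocerebellar ataxia. It had 526.1, 555.0 and 566.9 in Fezf2 KO 1, 2 and 3, compared with 451.9, 534.0 and 485.5 in wild type 1, 2 and 3. Only wild type 2 reached into the KO range. The log2 difference was 0.17 (95% interval -0.04 to 0.37, limma adjusted p = 0.68). In the RefSeq annotation of GRCm38, Thoc7 and Atxn7 overlap by 713 bases at their starts and are read in opposite directions, so reads in that stretch could belong to either gene. Psmd6 encodes a lid subunit of the 19S regulatory particle of the proteasome. Its values were 2463, 2342 and 2333 in Fezf2 KO 1, 2 and 3, compared with 2348, 2257 and 2429 in wild type 1, 2 and 3. The libraries were mixed between genotypes, and the log2 difference of 0.02 had a 95% interval of -0.11 to 0.15 (limma adjusted p = 0.965), the narrowest of the 9.

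Rpl15 and Nkiras1 are the farthest of the 9 genes from Fezf2 and lie next to each other, read away from each other from neighbouring starts. The bases between their facing first exons are shown because they separate the starts of genes that both had lower values in every KO library than in any wild type library. They span chr14:18271068-18271135 of GRCm38.p6 on the minus strand, the strand of Rpl15, and come from the RefSeq promoter table, in which 8 of the 9 flanking genes had an entry.
Rpl15-Nkiras1: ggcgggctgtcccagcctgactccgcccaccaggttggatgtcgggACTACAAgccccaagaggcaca
Capitals mark the 1 match found on either strand to the letters ACTACAA, which 0.813% of 32851 windows of the same length and position in the RefSeq promoter table held. Also searched on both strands, with 0 matches, were the letters CCGGAAG, held by 1.5% of those windows. The letters CCAAT had 0 matches as well, where 11.3% of the windows held them. For the letters TATAAA there were 0 matches, and 2.82% of the windows held them. The 68 bases were 66.2% GC. They lie 82 to 149 bases before the RefSeq start of Rpl15. Bases nearer to that start were not searched, so the counts of 0 matches do not cover them.

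Rpl15 encodes a protein of the large ribosomal subunit. It had 5399, 4827 and 4920 in Fezf2 KO 1, 2 and 3, compared with 5659, 6003 and 6719 in wild type 1, 2 and 3. All KO libraries lay below all wild type libraries, with Fezf2 KO 1 and wild type 1 the closest. The mean was 5049 ± 307 in Fezf2 KO and 6127 ± 541 in wild type (SD, n = 3 each), a ratio of 0.83 (95% interval 0.73 to 0.93 by limma). Its limma p was 0.0054 unadjusted and the gene did not pass over all genes (log2 -0.28, SE 0.074, adjusted p = 0.218). The log2 difference was -0.19 within litter m1 and -0.45 between the single libraries of litter m2. DESeq2 gave an adjusted p of 0.0253, and the range over all alternatives was 0.0253 to 0.704. Genes for ribosomal proteins have many processed copies in the genome, so the assignment of Rpl15 reads is uncertain.

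Nkiras1 encodes kappaB-Ras1, a small GTPase-like protein that restrains the degradation of IkappaB. It had 959.7, 1050 and 1052 in Fezf2 KO 1, 2 and 3, compared with 1148, 1058 and 1279 in wild type 1, 2 and 3. The genotypes did not overlap, but the gap between Fezf2 KO 3 and wild type 2 was small beside the spread within either genotype. The log2 difference was -0.18 (95% interval -0.38 to 0.02, limma adjusted p = 0.596). Nkiras1 overlaps its neighbour Ube2e1 by 1278 bases in the RefSeq annotation. Ube2e1, a ubiquitin-conjugating enzyme gene chosen here after its values were seen, had 1789 ± 58.1 in Fezf2 KO and 1958 ± 101 in wild type (SD, n = 3 each), with a limma adjusted p of 0.606. By library it had 1850, 1735 and 1781 in Fezf2 KO 1, 2 and 3, compared with 1874, 1928 and 2070 in wild type 1, 2 and 3. Every KO library of Ube2e1 thus lay below every wild type library, so this was not particular to Rpl15 and Nkiras1 with their facing starts. Over all genes 6.85% had that pattern.

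The sign of the log2 difference was the same in both litters for 8 of the 9 genes, against 57.1% of all genes tested. For the other named genes within 10 Mb of Fezf2 it was the same for 30 of 45 entries tested. Psmd6 was the exception among the 9, with 0.06 in litter m1 and -0.06 in litter m2. The 8 include Fhit, Cadps and Synpr, whose sign over all libraries turned when 1 library was left out. Litter m2 has 1 library per genotype and gives no test of its own. Of flanking genes that follow each other and are read away from each other, Thoc7 and Atxn7 both had differences above 0, and Rpl15 and Nkiras1 both had differences below 0. Fhit and Ptprg, in the same arrangement, differed in sign, and Cadps and Synpr were at -0.03 and -0.04.

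The rest of the region was read in the same way. The RefSeq annotation places 53 other named genes of the table within 10 Mb of Fezf2, of which 45 entries were tested. In limma 0 of these rose and 0 fell, where 0.712% of all genes passed, and edgeR and DESeq2 called 0 as well. At an unadjusted p under 0.05 there were 8 (6 higher and 2 lower) against 9.03% of all genes, and the genotypes did not overlap for 11, against 14.5% of all genes. The median log2 difference was -0.012. Without Fezf2 KO 2 limma called 1 of them, Rarb, and without wild type 1 it called 1, Fam107a.

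**Figure D4:**
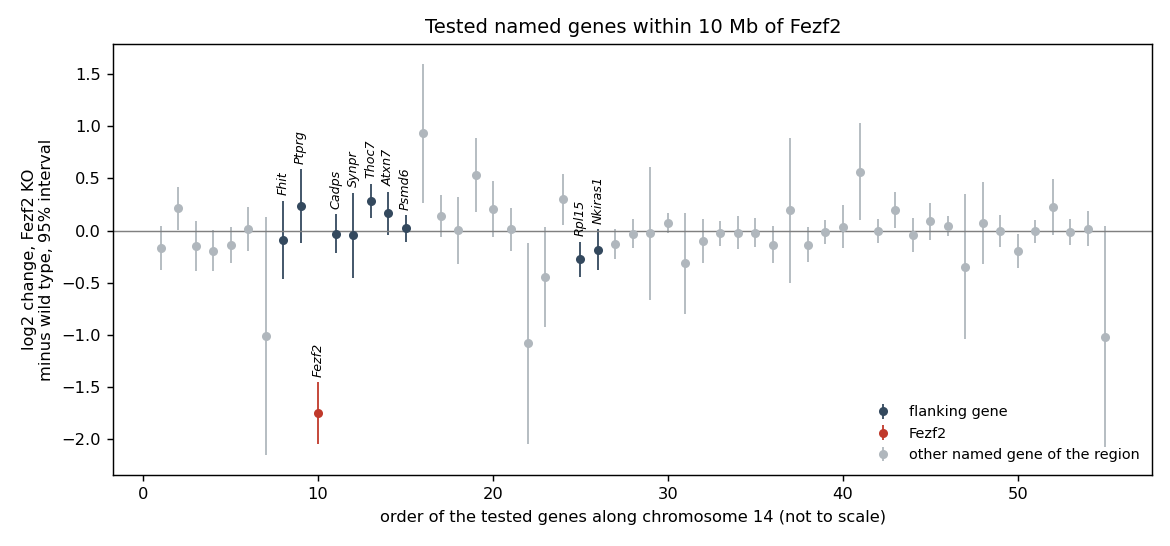
Log2 change of Fezf2 KO minus wild type with the limma 95% interval (y axis) for the tested named genes within 10 Mb of Fezf2, in order along chromosome 14 (x axis, order and not distance). Fezf2 stands at -1.75; the flanking genes lie between -0.28 and 0.28, and the other genes between -1.08 and 0.93.

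The nearest tested gene among these on the centromere side was Fam107a, which encodes an actin-associated protein. It had 77.1, 85.3 and 70.7 in Fezf2 KO 1, 2 and 3, compared with 62.7, 196.3 and 315.4 in wild type 1, 2 and 3. The KO libraries lay near wild type 1 and below the other wild type libraries (log2 -1.01, limma adjusted p = 0.618). On the distal side the nearest was Il3ra, a subunit of the interleukin 3 receptor, with 155.9, 120.3 and 139.5 in Fezf2 KO 1, 2 and 3, compared with 91.7, 93.4 and 43.0 in wild type 1, 2 and 3. Its KO libraries were all higher than the wild type libraries (log2 0.93, limma adjusted p = 0.313).

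Genes that work with the flanking genes or resemble them, and lie elsewhere in the genome, were read beside them from lists of partners. Of 133 entries tested in the 8 lists limma and edgeR called 0 and DESeq2 called 3, while 11 reached an unadjusted limma p under 0.05. Over all genes these shares were 0.712% for limma, 0.689% for edgeR, 2.3% for DESeq2 and 9.03% for the unadjusted p, so the counts over the 8 lists were near the background. Of the 20 other receptor phosphatases and contactins 0 passed, 5 had an unadjusted p under 0.05 (9.03% of all genes did) and the median log2 difference was 0.069. The smallest p among them was that of Ptprk, an adhesion-type receptor phosphatase, with 7718 ± 340 in Fezf2 KO and 6490 ± 62.6 in wild type (SD, n = 3 each; limma adjusted p = 0.0706). In the list of CAPS, synaptophysin and synaptogyrin genes, 7 were tested with a median of -0.040. Cadps2, the paralog of Cadps, had 724 ± 56.9 in Fezf2 KO and 577 ± 41.6 in wild type (limma adjusted p = 0.259), with no overlap between the genotypes, whereas Cadps itself showed overlap.

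The other THO and export genes (8 tested) had differences from -0.17 to 0.03 and a median of -0.049, beside 0.28 for Thoc7. The lowest p among them was that of the helicase gene Ddx39, with 1976 ± 90.4 in Fezf2 KO and 2131 ± 18.5 in wild type (limma adjusted p = 0.656). The 17 SAGA genes had a median of 0.016, with Kat2a, the acetyltransferase of the complex, at 6663 ± 195 in Fezf2 KO and 7073 ± 182 in wild type (limma adjusted p = 0.663). The 17 other 19S proteasome genes ran from -0.07 to 0.06, a range that holds the 0.02 of Psmd6, and Psmd1 had 5414 ± 301 in Fezf2 KO and 5197 ± 186 in wild type (limma adjusted p = 0.878). Among the 6 histidine triad genes the median was -0.052, and Galt, of galactose metabolism, had 1019 ± 168 in Fezf2 KO and 1255 ± 118 in wild type (limma adjusted p = 0.499).

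The other large ribosomal subunit genes (46 entries tested, 3 of them named Rpl29) had a median log2 difference of 0.005 and ran from -0.23 to 0.06. Of these 46, 0 lay below the -0.28 of Rpl15, 0 had an unadjusted limma p under 0.05 and 0 had genotypes that did not overlap. Over all genes 9.03% had such a p and 14.5% had genotypes that did not overlap. The lowest p in that list was that of Rpl26, with 6856, 4648 and 4698 in Fezf2 KO 1, 2 and 3, compared with 6230, 6186 and 6257 in wild type 1, 2 and 3 (limma adjusted p = 0.717). There Fezf2 KO 1 was the highest of all libraries and the other KO libraries were the lowest. Rpl21 had the same order, with 6186, 3690 and 3637 in Fezf2 KO 1, 2 and 3, compared with 4751, 4962 and 5052 in wild type 1, 2 and 3 (limma adjusted p = 0.893). The 12 NF-kappaB and IkappaB genes had a median of 0.021. Relb, an NF-kappaB subunit, had 469 ± 54.4 in Fezf2 KO and 304 ± 50.5 in wild type (SD, n = 3 each; limma adjusted p = 0.139), and Nkiras2, the paralog of Nkiras1 and a gene chosen after its values were seen, had a 95% interval of -0.14 to 0.15. The genes that DESeq2 called in these lists were Ptprk (adjusted p = 0.000554), Relb (0.00737) and Cntn6 (0.0147).

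Thoc7 was compared with 12287 other named genes by the root mean square difference of log2 values, each centred on its mean over the 6 libraries. The nearest were Atp8a1, a phospholipid flippase gene, at 0.026, Phlda3 at 0.034 and Srd5a3 at 0.037. Atp8a1 had 4475, 4255 and 4247 in Fezf2 KO 1, 2 and 3, compared with 3752, 3647 and 3421 in wild type 1, 2 and 3. Since they were picked for values that follow those of Thoc7, their difference between genotypes is fixed by that choice and is given as a description.

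**Figure D5:**
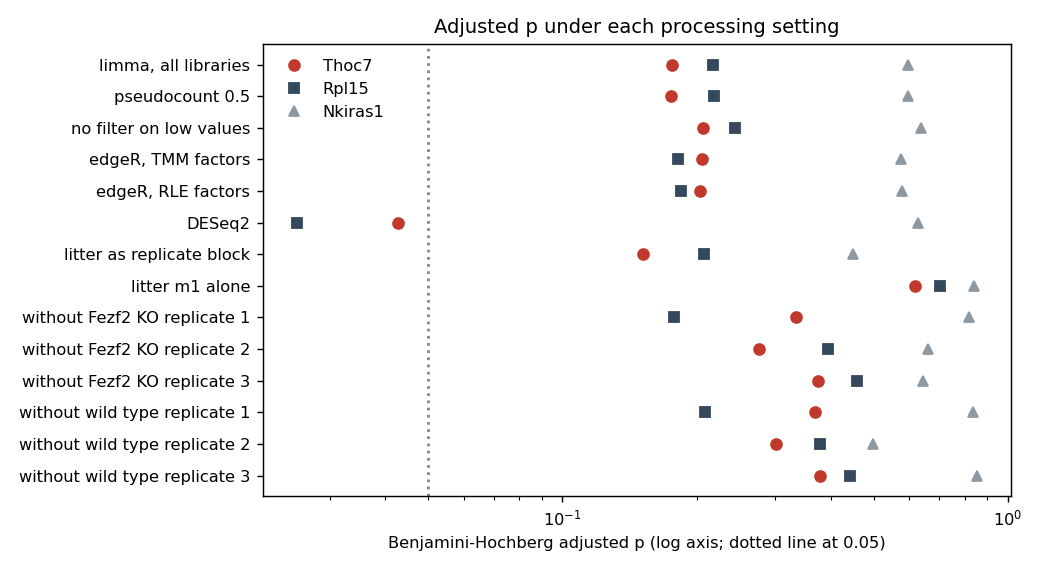
Benjamini-Hochberg adjusted p (x axis, log scale; dotted line at 0.05) of Thoc7, Rpl15 and Nkiras1 under limma with all libraries and 13 alternatives (rows). Under DESeq2 Thoc7 stands at 0.0427 and Rpl15 at 0.0253, and under each other setting shown all 3 genes lie above 0.05.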

How the data were processed

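Per the labels, RNA was isolated from each brain and made into Illumina TruSeq libraries run on a Genome Analyzer II. Bowtie, STAR, DESeq and the build mm9 appear in the submitters' processing notes, and their settings and versions are not given in the sources used here. The deposited signal is the reads of each gene scaled by a size factor of the library, with no scaling to gene length. The value of 1 read was 0.812 to 0.936, and 100.0% of values were whole multiples of it within 0.006. Chi-square per degree of freedom between libraries of a genotype was 8.39 to 19.2, well above sampling noise.

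The genes and lists were chosen with earlier results of these data known. Entries that reached 10 in 3 or more libraries were fitted with limma 3.58.1 (trend, pseudocount 1, genotype alone) in R 4.3.3, with Benjamini-Hochberg adjustment over all of them. Alternatives were edgeR 4.0.16 and DESeq2 1.42.0 on recovered reads (121 and 403 genes called), a pseudocount of 0.5, no filter, litter as a block, litter m1 alone and each library left out. Steps were tested on simulated data. Litters come from the labels. Correlations of deviations from genotype means over 14328 genes were -0.131 to 0.282 for libraries of the same litter and -0.222 to -0.047 otherwise.

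Genes named by a set rule were Fezf2, the 9 flanking genes, region genes that passed and the nearest tested on each side, the lowest p of each partner list, and the 3 genes most like the flanking gene with the lowest p. Named outside that rule were the linc transcripts, 3830406C13Rik, Ube2e1, Nkiras2, Oxsm, Rarb, Zfp503, Cntn6 and single marker genes. RefSeq and GENCODE M21 (GRCm38) served for order, strand and overlap. Predicted genes (Gm and Rik symbols) were left out of the region counts.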

Additional observations from a re-analysis of the deposited data

How the results depend on the processing

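The 9 flanking genes held 0 changed genes under limma with all libraries and 2 under DESeq2 (Thoc7 and Rpl15), with 0 under each other alternative, edgeR included; leaving out 1 library gave 0 to 0. The other region genes held 0, and 0 to 1 with 1 library left out. Over all genes limma called 125, DESeq2 403 and litter m1 alone 29, with 61 to 119 when 1 library was left out; fewer libraries alone can lower the number. With litter as a replicate block 0 flanking genes passed and 138 genes passed in all, so the block changed no call among the flanking genes. Signs turned when 1 library was left out for Fhit (-0.19 to 0.05), Cadps (-0.09 to 0.06), Synpr (-0.24 to 0.16) and Psmd6 (-0.01 to 0.05, with -0.0036 without Fezf2 KO 1). Ptprg, Thoc7, Atxn7, Rpl15 and Nkiras1 kept their sign under all 13 alternatives. Fezf2 had a log2 change of -1.72 in litter m1 alone, with a limma adjusted p of 0.0595. The cause of the difference between DESeq2 and the other tools was not tested. With 3 libraries per genotype the median 95% interval of the flanking genes reached 0.199 on either side on the log2 scale, against 0.230 over all genes.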

Other observations

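The predicted gene 3830406C13Rik lies between Ptprg and Fezf2 and is the nearest gene to Fezf2 on the centromere side. It had 318.3, 299.1 and 279.9 in Fezf2 KO 1, 2 and 3, compared with 253.6, 244.3 and 212.3 in wild type 1, 2 and 3. All KO libraries lay above all wild type libraries, with a log2 difference of 0.34 (SE 0.111, limma adjusted p = 0.346).

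Other genes of the region were chosen after their values were seen. Oxsm, a mitochondrial fatty acid synthesis enzyme gene, had 429 ± 53.9 in Fezf2 KO and 298 ± 52.8 in wild type (SD, n = 3 each; limma adjusted p = 0.27), and its genotypes did not overlap. Rarb, a retinoic acid receptor gene, had 168.9, 650.2 and 291.4 in Fezf2 KO 1, 2 and 3, compared with 857.1, 586.4 and 608.4 in wild type 1, 2 and 3. Zfp503, one of the striatal markers, had 164.8, 728.3 and 317.0 in Fezf2 KO 1, 2 and 3, compared with 879.6, 672.8 and 537.1 in wild type 1, 2 and 3. In both genes Fezf2 KO 1 was the lowest library and Fezf2 KO 2 lay within the wild type range.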
